A study of Homo sapiens with 4 samples.

Results

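The effect of the mutant PDZ peptide on LPS-treated cells was read from 1 comparison, mut PDZ+LPS against LPS, with 1 RNA library a side. BEAS-2B cells, an established line of virus-transformed human bronchial epithelial cells, received the mut PDZ peptide for 24 hr and then LPS for 2 hr (mut PDZ+LPS), or LPS for 2 hr with no peptide (LPS). The other libraries of the series, shown for orientation, came from untreated cells (Control) and from cells given the WT PDZ peptide for 24 hr before 2 hr of LPS (WT PDZ+LPS). Both peptides were built on part of the first PDZ domain of ZO-1, a scaffold of the tight junction, joined to the cell-entry sequence of the viral TAT protein and a FITC dye, and the mutant carries alanines in place of a pair of glycines. LPS cells received no TAT-bearing peptide, so the mutated PDZ sequence and the rest of the peptide cannot be told apart in this comparison. A gene entered when either library held at least 64 normalized counts, which took in 11603 of the 18894 genes with a count in any library. CDA (64.6 normalized counts in mut PDZ+LPS) lay just inside that minimum and TIAM2 (48.2 there and just under the minimum in LPS) just outside it.

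LPS, a component of the outer membrane of gram-negative bacteria, is sensed by TLR4 and switches on NF-kB, a family of dimeric transcription factors held in the cytoplasm by IkB proteins. Released NF-kB induces chemokines, cytokines and its own inhibitors within hours, beside the immediate early genes that MAP kinases induce. PDZ domains bind the C-terminal tails of partner proteins, and in ZO-1 they tie claudins and junction molecules to the actin cortex.

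The libraries held 19682929 (mut PDZ+LPS) to 25155647 (LPS) counts, and the size factor of mut PDZ+LPS was 0.851. No condition had a second library, so differences have no check against replicates and were not tested. The 95% intervals given are exact binomial (Clopper-Pearson) intervals and cover counting error only. Of 13 epithelial markers 10 were above the minimum, with summed normalized counts of 92746 in LPS and 115629 in mut PDZ+LPS, and so were 10 of 12 mesenchymal markers, with 37289 and 41762. The median log2 ratio of the 10 epithelial markers was 0.15, and -0.087 after the length adjustment described below. For the 10 mesenchymal markers these medians were -0.08 and 0.054. Of 7 fibroblast markers 3 passed, COL1A1 among them, with sums of 1964 and 2108, while LUM and COL3A1 were at 0 in both. Leukocyte markers were near absent, with 1 of 15 above the minimum (CD68), sums of 359.3 and 381.9, and PTPRC, CD163 and 6 others at 0. No endothelial (6), red blood cell (5) or ciliated and secretory airway (7) marker passed, and their summed counts were at most 42.3 in either library. In RNA from a whole culture, fewer cells of a kind and less RNA per cell cannot be told apart.

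Short transcripts were higher and long transcripts lower in mut PDZ+LPS than in LPS, across the whole transcriptome. With genes sorted by the length of their longest transcript into 5 equal groups, the median log2 ratio was 0.33 in the shortest group (75 to 2005 nt), 0.10 in the next, -0.069 in the middle, -0.21 in the fourth and -0.40 in the longest (5861 nt and over). The shortest and the longest group thus differed by 0.73 in their median log2 ratio. In WT PDZ+LPS/LPS the same groups had medians of -0.0012 to 0.023. The spread over all genes was an SD of 0.43 on the log2 scale, against 0.16 for WT PDZ+LPS/LPS.

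**Figure D1:**
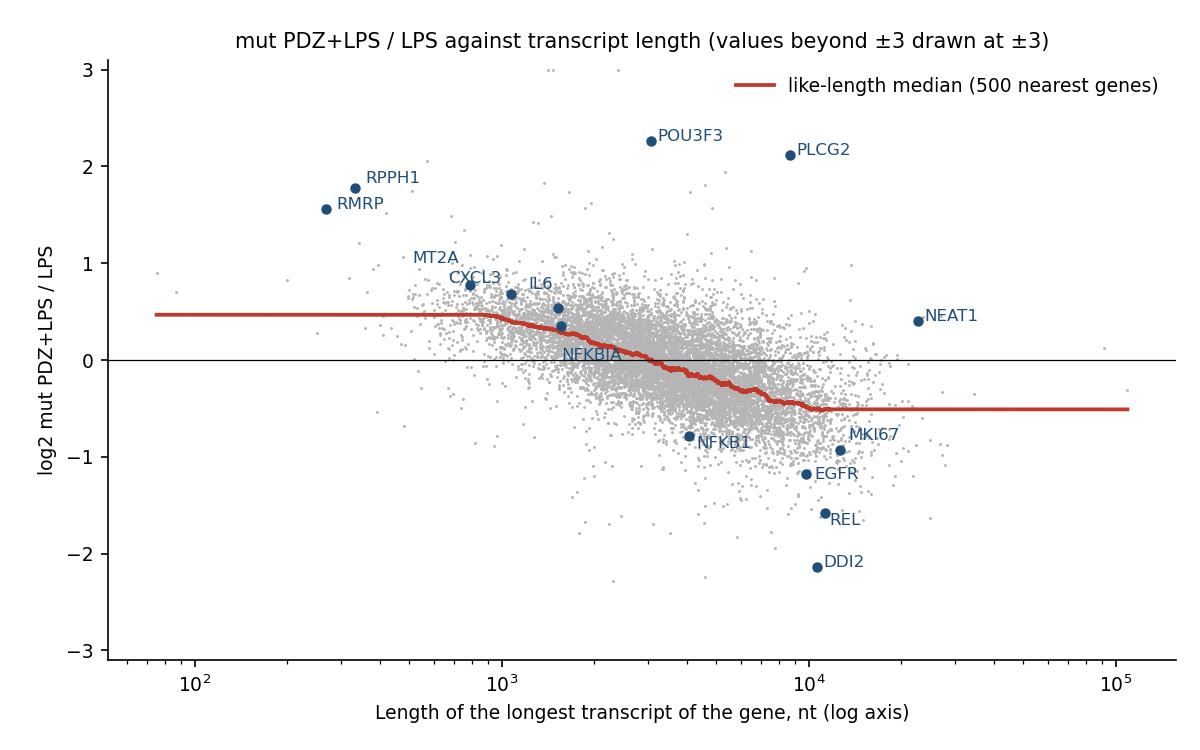
Log2 ratio of mut PDZ+LPS to LPS (y axis) against transcript length in nt (log x axis) for each gene with a known length, with the median of the 500 genes nearest in length as a red line and 14 named genes in blue. The red line runs from 0.47 at the short end down to -0.52 among long transcripts, and REL, EGFR and DDI2 lie below it while POU3F3, PLCG2 and NEAT1 lie above it.

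Length was not the only property that ran with the ratio. Over 11069 protein-coding genes, Spearman's rho with the log2 ratio was -0.63 for transcript length, -0.48 for coding length, -0.49 for 3' UTR length and -0.077 for 5' UTR length. For genomic span, the length of genome that a gene covers, rho was -0.54, and for exon number it was -0.38. GC content ran the other way, with a rho of 0.43 against a rho of -0.095 in WT PDZ+LPS/LPS. The link to GC content was also present among genes of like length, with rho from 0.11 in the longest group to 0.38 in the shortest. These are descriptions across genes of the same pair of libraries, and what produced the trend was not tested.

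For each gene, the median log2 ratio of the 500 genes closest in transcript length was subtracted, and the difference is called the length-adjusted log2 ratio. Below, a single ratio in brackets is this adjusted one unless said otherwise, of 2 ratios the first is unadjusted, and, except in counting intervals, a pair joined by "to" gives normalized counts in LPS and then in mut PDZ+LPS. Subtraction removed the length trend (rho -0.006) and narrowed the SD from 0.43 to 0.34. It left part of the GC trend, with a rho of 0.28 and a median of 0.20 in the GC-richest of 5 equal groups of genes (58.3% to 74.5% GC) against -0.082 in the second-poorest. Subtraction also left a rho of -0.24 for genomic span, -0.14 for exon number and -0.12 for coding length. A value after a smooth fit over length and then GC content (lowess) is given for some genes and lists only. Under this fit, 100 named genes left their length-shifted counting interval and 107 did not. GSDMD, with an adjusted 0.25, was at -0.014 after the fit, and GPX1, with 0.23, was at -0.012. An adjusted value given alone may therefore differ after the fit. Because the longest annotated transcript need not be the one these cells use, the adjusted value of a gene depends on that choice. With lengths from the median coding transcript, 130 named genes left their length-shifted counting interval and 77 did not. EIF4E, with an adjusted 0.098, was then at -0.60, and CCL20, with -0.10, was at 0.22. An adjusted value given alone may differ under this choice as well.

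**Figure D2:**
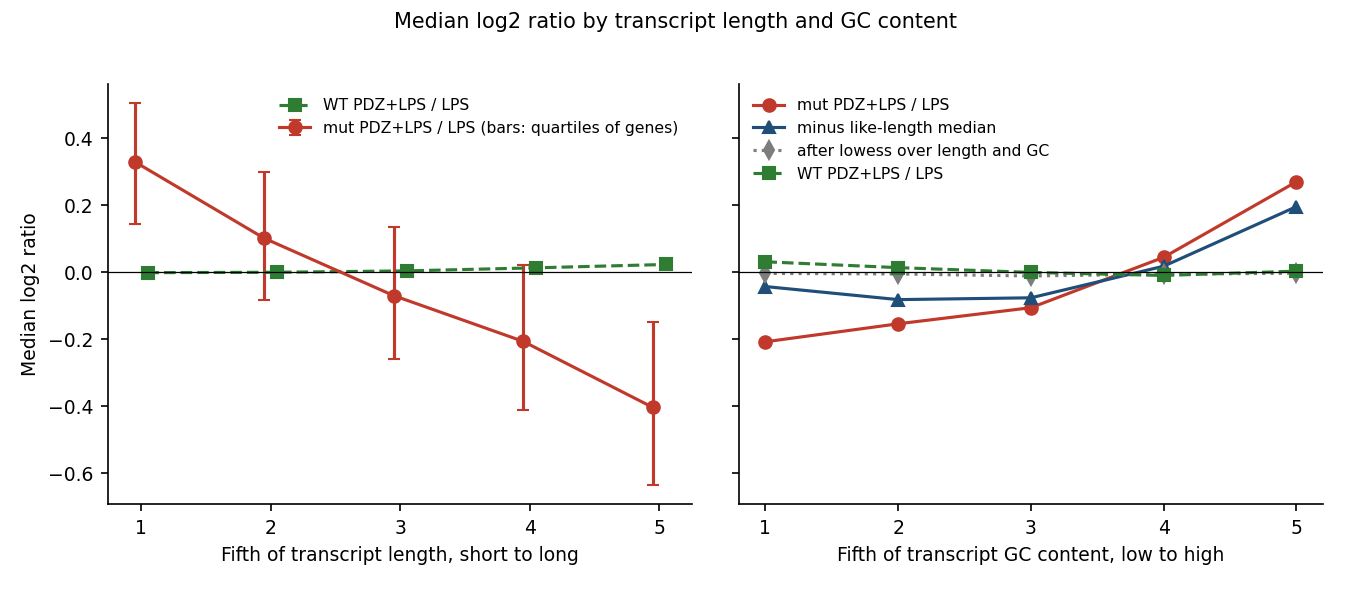
Median log2 ratio (y axis) in 5 equal groups by transcript length (left panel) and of GC content (right panel), for mut PDZ+LPS/LPS, WT PDZ+LPS/LPS and, on the right, mut PDZ+LPS/LPS after each correction, with bars on the left for the quartiles over genes. The mut PDZ+LPS medians run from 0.33 to -0.40 over length while the WT PDZ+LPS medians stay within 0.023 of 0.

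At least 2-fold differences were few and leaned to the lower side. Of the 11603 genes, 58 (0.5%) were at least 2-fold higher and 159 (1.37%) at least 2-fold lower in mut PDZ+LPS. Of the 159 lower genes, 114 belonged to the longest group of transcripts, and of the 58 higher genes, 33 belonged to the shortest. Among the 11468 genes with a length, 56 (0.488%) were at least 2-fold higher and 60 (0.523%) at least 2-fold lower after length adjustment. After adjustment 50.1% of these genes were above 0, and the list counts below are to be set beside these shares. Of the genes that passed without adjustment, 33 of the higher and 50 of the lower passed after it as well. The same 2-fold rule in WT PDZ+LPS/LPS, which shares the LPS library, took in 6 higher and 5 lower of 11494 genes. Low-count genes made up most of the adjusted calls, with 37 of the 56 higher and 39 of the 60 lower genes in the lowest of 3 abundance groups, where the SD of the adjusted ratio was 0.50 against 0.28 in the highest. In 31 of the 56 higher and 25 of the 60 lower genes, the library with the lower level was under 64 normalized counts, so that these genes entered through the other library alone and their direction was fixed by entry.

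Several of the most extreme ratios belonged to symbols that share sequence with another gene. COMMD3-BMI1 had 0 counts in LPS and 127 counts in mut PDZ+LPS, which is at least 52.9-fold higher with the 0 taken as 3 counts. It is a read-through symbol, meaning that it joins a pair of neighbouring genes, and reads on their common exons can be given to either. COMMD3, BMI1 and the joint symbol together held 2624 in LPS and 2413 in mut PDZ+LPS, a log2 ratio of -0.12. FAM72D likewise went from 0 to 114 counts (at least 47.5-fold higher) while its near-identical copy FAM72C went from 136 to 27 normalized counts, and the 4 FAM72 genes together held 359 in LPS and 425 in mut PDZ+LPS. SLMO2-ATP5E was the lowest of all without adjustment (-2.76), yet the sum with SLMO2 and ATP5E was 8397 in LPS and 8657 in mut PDZ+LPS. CHURC1-FNTB (3.32), DYX1C1-CCPG1 (1.81), RPL36A-HNRNPH2 (2.05) and PHOSPHO2-KLHL23 (at least 36.6-fold) were high in the unadjusted log2 ratio or fold, and SENP3-EIF4A1 (-1.78) was low, with the same limit. RPL36A-HNRNPH2, RPL36A and HNRNPH2 together held 12184 in LPS and 16856 in mut PDZ+LPS, a log2 ratio of 0.47. SEPT5 (109 to 32.9 normalized counts) and SEPT5-GP1BB (32.9 to 112) moved in opposite directions, and the sum with GP1BB had a log2 ratio of 0.087. The read-through symbol C15orf38-AP3S2 (600.2 to 195 normalized counts) and PCDHGB2 (81.8 to 16.4), a protocadherin that shares exons with its cluster, have the same limit.

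IPO11 differed from most of these, since it and its joint symbol did not balance. IPO11-LRRC70 was 12.2 normalized counts in LPS and 267 in mut PDZ+LPS, beside 28.7 in Control and 0 in WT PDZ+LPS, while IPO11, a nuclear import receptor, was 2180 normalized counts in LPS and 861 in mut PDZ+LPS, beside 2285 in Control and 2358 in WT PDZ+LPS. All 3 symbols together had a log2 ratio of -0.95 (2202 in LPS and 1143 in mut PDZ+LPS). Without symbols that are read-throughs or share 50% or more of their 100-base stretches with another gene of the table, 44 genes were at least 2-fold higher and 50 at least 2-fold lower after length adjustment.

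Among genes with little shared sequence, a neural transcription factor and a signalling phospholipase stood highest. POU3F3, a POU-domain transcription factor of the developing brain, had 108 normalized counts in LPS and 522 in mut PDZ+LPS, beside 130.5 in Control and 162 in WT PDZ+LPS, a log2 ratio of 2.26 (counting interval 1.97 to 2.58) and a length-adjusted one of 2.27. PLCG2, which cleaves membrane phosphoinositides downstream of immune receptors, had 36.7 normalized counts in LPS and 162 in mut PDZ+LPS, beside 55.7 in Control and 61.6 in WT PDZ+LPS, and a length-adjusted log2 ratio of 2.55. In both genes the mut PDZ+LPS library was the highest of the 4 and LPS the lowest. TIAF1, which lies within the MYO18A gene, went from 46.1 to 179.8 normalized counts (2.19 after adjustment) with 24.8% of its stretches shared. BMP8B, a bone morphogenetic protein, came next (249 to 744, 1.77), followed by DNAH17, a dynein heavy chain (37.6 to 75.2, 1.49), PLIN4, a lipid droplet coat protein (80.9 to 177, 1.44), WNK4, a kinase of ion transport (54.6 to 136, 1.43), and SHC3, a receptor adaptor (1011 to 1953, 1.43). SHC3 held 1788 in Control without adjustment. Of these genes, PLCG2, TIAF1, DNAH17 and WNK4 were under the minimum in LPS and so could only be seen as higher. BMP8B, DNAH17, PLIN4, WNK4 and SHC3 were named after their values were seen.

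Among the lowest such genes were a pseudogene, a kinase and a protease. ANKRD36BP1, a transcribed pseudogene, had 380.0 normalized counts in LPS and 109 in mut PDZ+LPS, beside 349 in Control and 450.4 in WT PDZ+LPS, a length-adjusted log2 ratio of -2.04. POMK, a kinase that builds the matrix-binding sugar of dystroglycan, had 185 normalized counts in LPS and 57.6 in mut PDZ+LPS, beside 227 in Control and 237 in WT PDZ+LPS (-1.90). KCTD14 had 246 in LPS and 91.6 in mut PDZ+LPS (-1.69). DDI2, a protease of the proteasome stress response, had 396 normalized counts in LPS and 89.3 in mut PDZ+LPS, beside 447 in Control and 416 in WT PDZ+LPS, a log2 ratio of -2.14 (-1.63 adjusted). RSC1A1, whose sequence lies wholly inside the DDI2 transcript, was also lower (324 to 139). TMED8 (75.3 to 18.8) and FAM171B (94.1 to 25.8) were lower as well, and in ANKRD36BP1, POMK, KCTD14, DDI2, TMED8 and FAM171B mut PDZ+LPS was the lowest library. EDARADD (66.8 to 20, -1.68) and ZC3HAV1L (77.1 to 29.4, -1.63) ranked among them at lower counts. RSC1A1, EDARADD, ZC3HAV1L and the 4 genes that follow were named after their values were seen. Of more abundant genes, TBC1D14, a regulator of autophagosome formation, went from 1040 to 372 (-1.28) and MAN1A2, a Golgi mannosidase, from 1065 to 354 (-1.15). PDE4B, a cAMP phosphodiesterase higher in LPS than in Control, had 116 normalized counts in LPS and 35.2 in mut PDZ+LPS, beside 21.8 in Control and 67.7 in WT PDZ+LPS (-1.50), and SGPP2, a sphingosine phosphate phosphatase, had 2821 normalized counts in LPS and 1296 in mut PDZ+LPS, beside 675 in Control and 2530 in WT PDZ+LPS (-1.06). In both, mut PDZ+LPS lay between Control and LPS. Of the genes in this group, POMK, TMED8, FAM171B, EDARADD, ZC3HAV1L and PDE4B were under the minimum in mut PDZ+LPS and so could only be seen as lower.

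Chemokine mRNAs were higher in mut PDZ+LPS than in LPS but not beyond other short transcripts. Of the 10 chemokines above the minimum, 9 had a log2 ratio above 0 and none reached 2-fold. Their median was 0.30 without and -0.021 with length adjustment, beside medians of -0.033 and near 0 over all genes. CXCL3, a neutrophil attractant, had 5087 normalized counts in LPS and 8151 in mut PDZ+LPS, beside 88.8 in Control and 5065 in WT PDZ+LPS, a log2 ratio of 0.68 (counting interval 0.63 to 0.73) and the highest adjusted value of the list (0.28). CXCL8, the main neutrophil attractant of airway epithelium, had 37516 normalized counts in LPS and 47644 in mut PDZ+LPS, beside 1307 in Control and 34700 in WT PDZ+LPS, with 0.34 and 0.074. CXCL1 had 40741 in LPS and 48403 in mut PDZ+LPS (0.25 and -0.14). CCL20, which draws dendritic cells, had 14724 normalized counts in LPS and 18981 in mut PDZ+LPS, beside 44.4 in Control and 11428 in WT PDZ+LPS (0.37 and -0.10), and the monocyte attractant CCL2 had 6675 normalized counts in LPS and 7896 in mut PDZ+LPS, beside 86.2 in Control and 4469 in WT PDZ+LPS (0.24 and -0.23). With lengths taken from the median coding transcript the list median was 0.23, so the placing of these short mRNAs turns on which transcript stands for the gene. CXCR2, the receptor for several of these ligands, was at 0.94 and 2.35 normalized counts and gives no fold.

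Cytokines gave a wider spread. Of 14 above the minimum, 8 were above 0 after adjustment (median 0.069) against 50.1% of all genes. IL6, the acute-phase cytokine, had 10089 normalized counts in LPS and 14629 in mut PDZ+LPS, beside 352 in Control and 9299 in WT PDZ+LPS, a log2 ratio of 0.54 (counting interval 0.50 to 0.57) and an adjusted one of 0.23. The colony-stimulating factors CSF1 (23899 in LPS and 26114 in mut PDZ+LPS, adjusted 0.28) and CSF3 (12041 in LPS and 16392 in mut PDZ+LPS, adjusted 0.18) were on the same side. TNFSF14, a TNF family ligand that entered through mut PDZ+LPS alone and so could only be seen as higher, had 63 normalized counts in LPS and 121 in mut PDZ+LPS, beside 26.1 in Control and 86.8 in WT PDZ+LPS, an unadjusted ratio of 0.93 and an adjusted one of 1.08. It was higher in each library with LPS than in Control and highest with the mut PDZ peptide. At the other end, EBI3, a subunit of IL-27 named after its value was seen, had 74.3 in LPS and 52.9 in mut PDZ+LPS (-0.86). EBI3 entered through LPS alone and so could only be seen as lower. IL1B had 556 normalized counts in LPS and 644 in mut PDZ+LPS, beside 2.61 in Control and 340.3 in WT PDZ+LPS, an adjusted ratio of -0.057, and TNF stayed under the minimum at 43.3 normalized counts in LPS and 34.1 in mut PDZ+LPS, beside 0 in Control and 31.3 in WT PDZ+LPS (unadjusted -0.34, counting interval -1.07 to 0.36). SAA1, an acute-phase protein, had 17615 normalized counts in LPS and 28001 in mut PDZ+LPS, beside 13430 in Control and 19777 in WT PDZ+LPS, with 0.67 before and 0.20 after adjustment.

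The NF-kB genes differed by member. REL, which encodes the subunit c-Rel, had 1714 normalized counts in LPS and 571 in mut PDZ+LPS, beside 455 in Control and 1754 in WT PDZ+LPS, so that mut PDZ+LPS lay between Control and the other LPS libraries. Its log2 ratio was -1.58 (counting interval -1.73 to -1.44) and remained past 2-fold after length adjustment (-1.07) and after the fit over length and GC content (-1.02). NFKB1, which encodes the p50 subunit and its precursor, had 12845 normalized counts in LPS and 7445 in mut PDZ+LPS, beside 1909 in Control and 11534 in WT PDZ+LPS (-0.79, adjusted -0.63). NFKB2, its non-canonical counterpart, had 6521 normalized counts in LPS and 7361 in mut PDZ+LPS, beside 1014 in Control and 5478 in WT PDZ+LPS. Its adjusted ratio of 0.25 went the other way, but it was 0.038 after the fit over length and GC content. RELA, the activating partner of p50, had 2667 in LPS and 2577 in mut PDZ+LPS (-0.015), and RELB had 1808 in LPS and 1920 in mut PDZ+LPS (-0.045). The inhibitor gene NFKBIA had 11594 normalized counts in LPS and 14814 in mut PDZ+LPS, beside 1471 in Control and 10599 in WT PDZ+LPS (0.35, adjusted 0.073). Among other inhibitors, NFKBIB had 1131 in LPS and 1558 in mut PDZ+LPS, NFKBID 232 in LPS and 330.2 in mut PDZ+LPS and NFKBIE 2730 in LPS and 3053 in mut PDZ+LPS, with adjusted ratios of 0.27, 0.27 and 0.088, while NFKBIZ had 4457 in LPS and 3583 in mut PDZ+LPS (-0.22). In the list of 11, 6 were above 0, the median was 0.012, and REL and NFKB1 were the 2 lowest. After the fit over length and GC content, 4 were above 0. RELA, RELB and the inhibitors other than NFKBIA were named after their values were seen. REL has the longest mRNA of the list (11255 nt), and GENCODE places a second transcript over it, with 50.2% of its 100-base stretches in common, that is not a symbol of the count table.

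**Figure D3:**
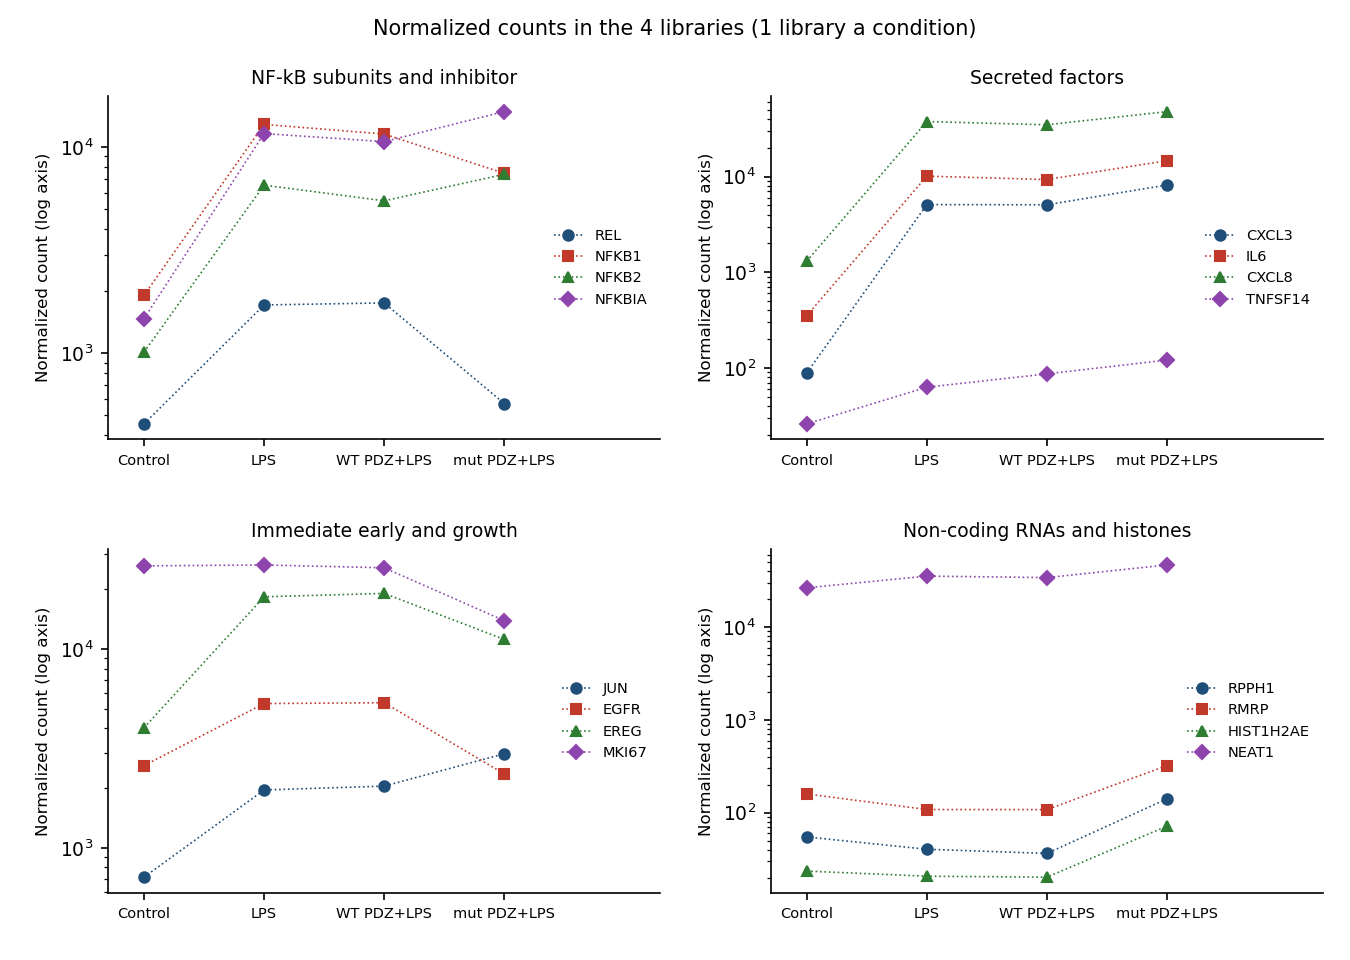
Normalized counts (log y axis) in the 4 libraries, with 1 point per library and dotted lines that join the points of a gene. In mut PDZ+LPS, REL, NFKB1, EGFR, EREG and MKI67 sit below their LPS points, and NFKBIA, CXCL3, IL6, JUN, RPPH1, RMRP and HIST1H2AE sit above them.

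REL, NFKB1, NFKB2 and NFKBIA share control by NF-kB itself. Their start regions are shown to set REL and NFKB1, the lower pair, beside NFKB2 and NFKBIA. The latter pair was higher before adjustment but at 0.038 and 0.09 after the fit over length and GC content. The windows are RefSeq's on GRCh38.p14, from 250 bases before to 50 after a start site, written 5′ to 3′ on the gene's strand, with matches to the NF-kB (kappa B) consensus on either strand in capitals. For genes with several starts, the window shown is the first that holds a match.
REL, chr2:60881324-60881623, plus strand: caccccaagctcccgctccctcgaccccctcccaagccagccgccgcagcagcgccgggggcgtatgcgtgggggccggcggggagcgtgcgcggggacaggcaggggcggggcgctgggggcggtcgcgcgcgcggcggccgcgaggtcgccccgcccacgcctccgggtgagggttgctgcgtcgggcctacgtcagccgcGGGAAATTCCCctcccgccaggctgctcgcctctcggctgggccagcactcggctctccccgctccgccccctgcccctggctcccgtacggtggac
NFKB1, chr4:102501109-102501408, plus strand: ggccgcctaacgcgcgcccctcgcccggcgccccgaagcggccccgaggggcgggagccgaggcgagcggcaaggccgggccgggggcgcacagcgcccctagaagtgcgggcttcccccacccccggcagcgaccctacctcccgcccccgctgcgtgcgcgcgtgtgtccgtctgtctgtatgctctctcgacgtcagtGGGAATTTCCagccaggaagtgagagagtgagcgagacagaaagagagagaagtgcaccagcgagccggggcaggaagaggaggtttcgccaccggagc
NFKB2, chr10:102394328-102394627, plus strand: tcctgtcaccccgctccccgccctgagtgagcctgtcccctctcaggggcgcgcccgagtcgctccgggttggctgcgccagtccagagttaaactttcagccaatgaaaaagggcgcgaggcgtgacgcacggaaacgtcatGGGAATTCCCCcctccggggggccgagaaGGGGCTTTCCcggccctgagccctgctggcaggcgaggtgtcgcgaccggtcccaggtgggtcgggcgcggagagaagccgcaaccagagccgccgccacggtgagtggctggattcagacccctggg
NFKBIA, chr14:35404700-35404999, minus strand: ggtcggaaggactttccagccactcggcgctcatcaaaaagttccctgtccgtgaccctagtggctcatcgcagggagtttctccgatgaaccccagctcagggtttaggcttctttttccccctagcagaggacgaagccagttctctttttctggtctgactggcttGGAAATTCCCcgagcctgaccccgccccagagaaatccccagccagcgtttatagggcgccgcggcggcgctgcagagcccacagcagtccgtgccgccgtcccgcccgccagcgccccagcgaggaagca

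Matches stood in the windows of both pairs. REL had 2, NFKB1 and NFKBIA 1 each and NFKB2 4, where overlapping and opposite-strand matches count separately. Of all 35116 RefSeq windows of this length, 11.3% held a match. Counted by gene, 8 of 9 subunit and inhibitor genes had a match in at least 1 of their windows, beside 17.6% of the 8873 genes of this comparison with a window. A match is a run of letters and not a measured binding site.

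Signalling proteins above and around NF-kB were near the background, with exceptions. Of 35 adaptors, kinases and feedback proteins, none reached 2-fold, 15 were above 0 after adjustment against 50.1% of all genes, and the median was -0.052. TNFAIP3, the A20 ubiquitin editor that shuts off NF-kB, had 10368 normalized counts in LPS and 9492 in mut PDZ+LPS, beside 500.4 in Control and 9951 in WT PDZ+LPS (0.045). BIRC3 had 16169 in LPS and 13126 in mut PDZ+LPS (-0.052), TNIP1, an A20-binding inhibitor, 37494 in LPS and 35031 in mut PDZ+LPS (-0.14), and the RNase ZC3H12A 13031 in LPS and 14864 in mut PDZ+LPS (0.14). CHUK, the kinase IKK-alpha, was the lowest of the list with 1403 normalized counts in LPS and 736 in mut PDZ+LPS, beside 1299 in Control and 1569 in WT PDZ+LPS (-0.93, adjusted -0.85), followed by IRAK2 with 1072 in LPS and 702 in mut PDZ+LPS (-0.52). MAP3K14, which feeds IKK-alpha in the non-canonical pathway, was the highest with 603 in LPS and 714 in mut PDZ+LPS (0.43). CHUK, IRAK2 and MAP3K14 were named after their values were seen. Of the receptors, TLR4 was at 1604 in LPS and 1174 in mut PDZ+LPS (-0.45, adjusted 0.06) and TLR2 at 2098 normalized counts in LPS and 2003 in mut PDZ+LPS, beside 209 in Control and 1781 in WT PDZ+LPS (adjusted 0.098). The RNA sensor DDX58 had 1225 in LPS and 946 in mut PDZ+LPS (-0.23) and TMEM173, which encodes STING, 872 in LPS and 763 in mut PDZ+LPS (-0.45), and the median over 9 pattern receptors was 0.098.

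Other known NF-kB targets lay on both sides of 0. Of 35 further targets, 23 were above 0 after adjustment against 50.1% of all genes, with a median of 0.14. None was past 2-fold, beside 0.488% higher and 0.523% lower of all genes. TNFAIP2 had 114641 normalized counts in LPS and 115729 in mut PDZ+LPS, beside 6329 in Control and 87567 in WT PDZ+LPS (0.20) and PTX3, a secreted pattern-binding protein, 53023 normalized counts in LPS and 64747 in mut PDZ+LPS, beside 286 in Control and 50219 in WT PDZ+LPS (0.11). Complement C3 had 47332 in LPS and 42703 in mut PDZ+LPS (0.092), and SDC4, a heparan sulfate proteoglycan, 100415 in LPS and 81545 in mut PDZ+LPS (-0.37). With the median coding transcript as the length the median of these targets was -0.0095. SOD2, the mitochondrial superoxide dismutase, had 36361 normalized counts in LPS and 24648 in mut PDZ+LPS, beside 4148 in Control and 39267 in WT PDZ+LPS. Its raw ratio was -0.56 and its adjusted one -0.051 with a longest transcript of 14266 nt. With the median coding transcript (917 nt) the adjusted ratio of SOD2 was -0.72.

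Immediate early genes were above their like-length peers more often than not. Of 39 members, 25 were above 0 after adjustment against 50.1% of all genes, none reached 2-fold, and the median was 0.12. The AP-1 gene JUN led with 1962 normalized counts in LPS and 2983 in mut PDZ+LPS, beside 714 in Control and 2051 in WT PDZ+LPS (0.60, adjusted 0.69). JUND had 2327 in LPS and 4325 in mut PDZ+LPS (adjusted 0.66) and JUNB 1229 in LPS and 2033 in mut PDZ+LPS (adjusted 0.49), but both have a GC content above 58.3% and came to 0.27 and 0.23 after the fit over length and GC content, while JUN came to 0.63. IER5 (3055 in LPS and 4284 in mut PDZ+LPS, adjusted 0.65), CYR61 (7347 in LPS and 11990 in mut PDZ+LPS, 0.58) and the zinc finger factor EGR1 (2038 in LPS and 2749 in mut PDZ+LPS, 0.46) were on the same side. FOS had 167 in LPS and 214 in mut PDZ+LPS (0.20), while its relative FOSL2 had 8828 in LPS and 5945 in mut PDZ+LPS (-0.28). CTGF, a matricellular partner of CYR61, went against it with 30855 in LPS and 26479 in mut PDZ+LPS (-0.34), while MYC (8904 in LPS and 9164 in mut PDZ+LPS, -0.056) and KLF6 (7797 in LPS and 8059 in mut PDZ+LPS, 0.24) lay between them. JUN, JUNB, JUND, IER5, CYR61, EGR1 and FOS were named after their values were seen.

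**Figure D4:**
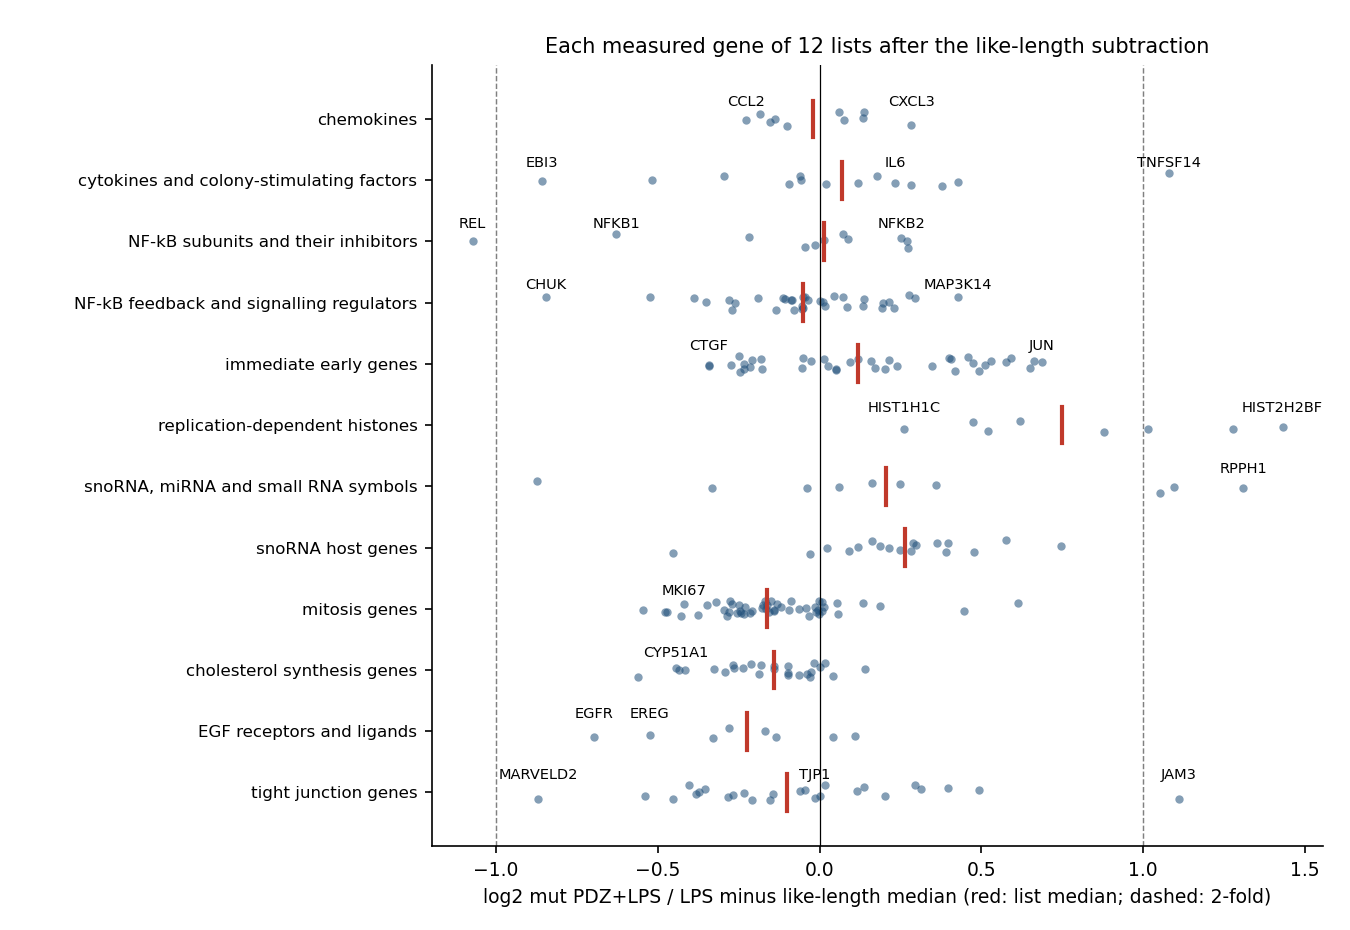
Length-adjusted log2 ratio (x axis) of each measured gene in 12 gene lists, with list medians as red bars and 2-fold as dashed lines. Of the 8 histones, which lie above 0, 6 entered through mut PDZ+LPS alone, REL lies past the lower dashed line, and the mitosis and cholesterol genes lie mostly below 0.

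Several RNAs that normally lack a poly(A) tail are given next, picked from lists that also held lower members. Of 73 replication-dependent histone genes, whose mRNAs end in a stem-loop, 8 reached the minimum, and 6 of these did so through mut PDZ+LPS and not LPS, so that these 6 could only be seen as higher and the list gives no count or median. Among the 6, HIST2H2BF had 27.3 normalized counts in LPS and 85.8 in mut PDZ+LPS, beside 36.6 in Control and 38.4 in WT PDZ+LPS, HIST1H2AE 20.7 normalized counts in LPS and 71.7 in mut PDZ+LPS, beside 23.5 in Control and 20.2 in WT PDZ+LPS and HIST1H1B 25.4 normalized counts in LPS and 72.8 in mut PDZ+LPS, beside 35.7 in Control and 29.3 in WT PDZ+LPS. HIST1H1C and HIST1H2BK were above the minimum in each library and could have gone either way. HIST1H1C had 93.1 normalized counts in LPS and 155 in mut PDZ+LPS, beside 88.8 in Control and 96.9 in WT PDZ+LPS (0.73, adjusted 0.26), and HIST1H2BK had 64.9 in LPS and 126 in mut PDZ+LPS (0.94, adjusted 0.48). RMRP, the RNA of a ribosomal RNA processing enzyme, had 108 normalized counts in LPS and 322 in mut PDZ+LPS, beside 159 in Control and 108 in WT PDZ+LPS (adjusted 1.10), and RPPH1, the RNA of RNase P, had 40.4 normalized counts in LPS and 141 in mut PDZ+LPS, beside 54.8 in Control and 36.4 in WT PDZ+LPS (1.31). The Cajal body RNA SCARNA2 had 30.1 in LPS and 88.1 in mut PDZ+LPS (1.05). RPPH1 and SCARNA2 also entered through mut PDZ+LPS alone, while RMRP was above the minimum in each library. These 3 short RNAs were under 2-fold after the fit over length and GC content, at 0.63, 0.84 and 0.61. MALAT1 and the long form of NEAT1, both nuclear RNAs, also end without a tail. NEAT1 (35449 normalized counts in LPS and 46725 in mut PDZ+LPS, beside 26504 in Control and 34151 in WT PDZ+LPS, adjusted 0.91) and MALAT1 (27670 in LPS and 32534 in mut PDZ+LPS, 0.67) were higher against other long transcripts. For NEAT1 the unadjusted ratio was 0.40, and the adjusted one rests on the length of its long form (22743 nt). The counts do not separate its forms. Library preparation selected for poly(A) tails, so the amount of these RNAs in the cells and their carry-over through selection cannot be told apart.

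Host transcripts of small nucleolar RNAs lay on the same side with smaller ratios. Of 18, 16 were above 0 after adjustment against 50.1% of all genes (median 0.27). SNHG16 was at 4525 in LPS and 5152 in mut PDZ+LPS (0.29), SNHG1 at 2186 in LPS and 2728 in mut PDZ+LPS (0.25), SNHG3 at 1780 in LPS and 2299 in mut PDZ+LPS (0.30) and ZFAS1 at 1754 in LPS and 2511 in mut PDZ+LPS (0.12). MIR4435-2HG, a microRNA host, was at 992 in LPS and 1030 in mut PDZ+LPS (0.16), and the 10 small RNA and microRNA host symbols had a median of 0.21. Of 115 antisense symbols with a length, 73 were above 0 (median 0.16), but whether counting used the strand is not given, so reads of a gene and its antisense partner may be mixed. The extremes there were SMARCA5-AS1 (-1.34), SMAD1-AS1 (66.8 to 41.1, -1.15) and SLFNL1-AS1 (44.2 to 96.3, 1.28), beside the abundant LRRC75A-AS1 (9249 to 11850, 0.091). Long intergenic and nuclear RNAs had a median of 0.06 over 61 genes, with LINC01311 (24.5 to 70.5, 1.17) and LINC01057 (365 to 631, 1.10) past 2-fold. LINC01311 and SLFNL1-AS1 were under the minimum in LPS and so could only be seen as higher. SMAD1-AS1 was under it in mut PDZ+LPS and could only be seen as lower.

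Short housekeeping mRNAs were higher in mut PDZ+LPS, and how far they stood above transcripts of like length depended on the transcript that gave the length. The 83 cytosolic ribosomal protein genes had a median of 0.50 before and 0.14 after adjustment, with 60 above 0 against 50.1% of all genes. RPL4 had 39867 in LPS and 49352 in mut PDZ+LPS (0.24) and RPS2 39095 in LPS and 52029 in mut PDZ+LPS (-0.022). RPL37 (9496 to 14454) reached 1.04 with a longest annotated transcript of 7686 nt, and 0.54 with the median coding transcript. RPL21 was at 806 normalized counts in LPS and 443 in mut PDZ+LPS, beside 748 in Control and 231 in WT PDZ+LPS, but 54.5% of its stretches recur in other annotated genes. Medians went from 0.28 to 0.0083 for 77 mitochondrial ribosomal proteins, from 0.36 to 0.059 for 78 nuclear genes of oxidative phosphorylation, and from 0.19 to -0.062 for 37 proteasome subunits. With the median coding transcript the medians were 0.37 for cytosolic ribosomal proteins, 0.17 for mitochondrial ones, 0.29 for oxidative phosphorylation and 0.11 for the proteasome. Examples are MRPL12 (3412 to 4924, 0.11), the ATP synthase subunits ATP5A1 (14983 to 12355, 0.018) and ATP5B (19692 to 16089, -0.53), and the proteasome subunits PSMA7 (6996 to 8703, -0.12) and PSMD2 (9346 to 6267, -0.50). Sm and LSm splicing proteins (0.081 over 31, or 0.26 with the median coding transcript, with SNRPB at 0.14) and translation factors (-0.044 over 57, with EEF1A1 at 0.15 and EEF2 at 0.067) had adjusted medians within 0.1 of 0.

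Genes of dividing cells were mostly below their peers. Of 51 mitosis genes, 9 were above 0 after adjustment against 50.1% of all genes, with a median of -0.16 and none past 2-fold. MKI67, the proliferation antigen Ki-67, had 26551 normalized counts in LPS and 13935 in mut PDZ+LPS, beside 26272 in Control and 25703 in WT PDZ+LPS (-0.93, adjusted -0.42), TOP2A, which untangles sister chromatids, 15759 in LPS and 10596 in mut PDZ+LPS (-0.28), and ANLN, a cytokinesis scaffold, 9442 in LPS and 7212 in mut PDZ+LPS (-0.21). The condensin subunit SMC4 lay on the other side with 12151 in LPS and 11256 in mut PDZ+LPS (0.13). DNA replication genes had a median of -0.12, with 18 of 52 above 0, RRM2 at 14902 in LPS and 12901 in mut PDZ+LPS (-0.12), MCM7 at 10972 in LPS and 9715 in mut PDZ+LPS (-0.18) and MCM4 at 7780 in LPS and 7961 in mut PDZ+LPS (0.19).

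Cholesterol synthesis showed the same one-sided pattern. Only 4 of 26 genes were above 0 after adjustment against 50.1% of all genes (median -0.14), and none reached 2-fold. CYP51A1, a sterol demethylase, had 13178 normalized counts in LPS and 9462 in mut PDZ+LPS, beside 11714 in Control and 13426 in WT PDZ+LPS (-0.44). HMGCS1, which acts near the start of the pathway, had 13505 normalized counts in LPS and 10348 in mut PDZ+LPS, beside 12286 in Control and 14443 in WT PDZ+LPS (-0.29). In WT PDZ+LPS/LPS their log2 ratios were 0.027 and 0.097.

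Stress and metabolic programs had medians close to the background. The unfolded protein and integrated stress response had a median of -0.037 over 42 genes. Its most abundant members in LPS, all chaperones, ranged from HSPA5 (20248 normalized counts in LPS and 25805 in mut PDZ+LPS, beside 19995 in Control and 25283 in WT PDZ+LPS, adjusted 0.45) through CALR (0.16) and HSP90B1 (0.038) to CANX (-0.26). HSPA5 was above LPS in both peptide libraries. Antioxidant NRF2 targets (-0.047 over 26) included FTH1 (67840 in LPS and 72484 in mut PDZ+LPS, -0.26), FTL (-0.14), TKT (0.29) and PRDX1 (-0.11). Glycolysis and hypoxia genes (-0.07 over 31) held 1 gene past 2-fold, the pyruvate dehydrogenase kinase PDK3 (596 normalized counts in LPS and 312 in mut PDZ+LPS, beside 576 in Control and 509.9 in WT PDZ+LPS, -1.13), and GAPDH (0.07), ENO1 (-0.16) and PKM (-0.22) within 0.25 of 0. The medians of interferon-stimulated genes (-0.019 over 48) and inflammasome genes (0.045 over 13) were near 0. The lowest and highest adjusted ratios were -0.62 and 0.69 among interferon-stimulated genes, and -0.40 and 0.96 among inflammasome genes. Of the most abundant members, B2M was at -0.026, HLA-B at 0.019, HLA-C at 0.058, LGALS3BP at 0.13, CASP4 at 0.045, GSDMD at 0.25, IFI16 at -0.11 and TXNIP at -0.31.

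MTOR, the growth kinase, had 3919 normalized counts in LPS and 2504 in mut PDZ+LPS, beside 3863 in Control and 3893 in WT PDZ+LPS, a log2 ratio of -0.65 that came to -0.20 after adjustment for its 8677 nt. The 33 genes of its pathway had a median of -0.0029, with AKT1 at 0.084, EIF4E at 0.098 and EIF4EBP2 at -0.37. DNM1L, the mitochondrial fission GTPase, had 3628 normalized counts in LPS and 2959 in mut PDZ+LPS, beside 3323 in Control and 3671 in WT PDZ+LPS (-0.29, adjusted -0.11). Of 22 genes of mitochondrial dynamics, 8 were above 0 against 50.1% of all genes (median -0.095). MFN2 was at -0.21, YME1L1 at -0.20, PHB at -0.051 and PHB2 at -0.075. Among 14 reactive oxygen enzymes (median -0.054), GPX1 was at 0.23, PRDX6 at -0.057 and PRDX3 at -0.32. NOS2, the inducible nitric oxide synthase, was at 1 count in LPS and 0 in mut PDZ+LPS and gives no fold, and no mitochondrially encoded symbol was among those counted.

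TJP1, the gene of ZO-1 itself, had 4320 normalized counts in LPS and 3185 in mut PDZ+LPS, beside 3844 in Control and 4364 in WT PDZ+LPS, and its log2 ratio of -0.44 (counting interval -0.51 to -0.37) was -0.015 against transcripts of like length (7950 nt). Of 26 tight junction genes, 9 were above 0 after adjustment against 50.1% of all genes, with medians of -0.33 before and -0.10 after adjustment. JAM3, a junctional adhesion molecule that entered through mut PDZ+LPS alone and so could only be seen as higher, had 38.6 normalized counts in LPS and 78.7 in mut PDZ+LPS, beside 59.2 in Control and 47.5 in WT PDZ+LPS (1.01, counting interval 0.45 to 1.63, adjusted 1.11). MARVELD2, the tricellulin of tricellular contacts named after its value was seen, was 2-fold lower before adjustment with 167 normalized counts in LPS and 81.1 in mut PDZ+LPS, beside 149 in Control and 202 in WT PDZ+LPS (-1.04, adjusted -0.87). CLDN1, a claudin higher in LPS than in Control, had 7058 normalized counts in LPS and 5144 in mut PDZ+LPS, beside 913 in Control and 7101 in WT PDZ+LPS (-0.37), and SYMPK 3074 in LPS and 3078 in mut PDZ+LPS (0.31). Other PDZ-domain scaffolds had a median of 0.01 over 42 genes, with SDCBP at -0.10, PDLIM1 at -0.054, ARHGEF12 at -0.37 and ERBB2IP at 0.12.

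EGFR, the epidermal growth factor receptor, was more than 2-fold lower, with 5336 normalized counts in LPS and 2363 in mut PDZ+LPS, beside 2602 in Control and 5386 in WT PDZ+LPS. Its log2 ratio was -1.18 (counting interval -1.25 to -1.10), -0.70 after length adjustment and -0.63 after the fit over length and GC content. Its ligand EREG had 18363 normalized counts in LPS and 11212 in mut PDZ+LPS, beside 4032 in Control and 19106 in WT PDZ+LPS (-0.71, adjusted -0.53). Both genes were higher in LPS than in Control. ERBB2 (2652 in LPS and 2096 in mut PDZ+LPS, -0.17) and the ligand-releasing protease ADAM10 (4155 in LPS and 3157 in mut PDZ+LPS, 0.11) stayed nearer to 0, and the 8 genes had a median of -0.22, the lowest of the lists. Cytokine receptors were also low, with 9 of 28 above 0 against 50.1% of all genes and a median of -0.16. IL6ST, the shared gp130 chain, had 18141 in LPS and 11322 in mut PDZ+LPS (-0.24) and OSMR 6644 in LPS and 4360 in mut PDZ+LPS (-0.36), while LTBR had 3787 in LPS and 5010 in mut PDZ+LPS (0.27). In the TGF-beta family (median -0.044 over 30), TGFBR2 had 17482 in LPS and 11430 in mut PDZ+LPS (-0.43), SMAD5 was at -0.18 and SMAD3 at 0.0083.

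Structural genes divided by family. Keratins had a median of 0.16, with 9 of 12 above 0 against 50.1% of all genes, and a highest adjusted ratio of 0.81. Those named are the most abundant in LPS. KRT17, a keratin of stressed and basal cells, had 6805 normalized counts in LPS and 13059 in mut PDZ+LPS, beside 5261 in Control and 7558 in WT PDZ+LPS (0.94, adjusted 0.67). KRT7, KRT8 and KRT18 had adjusted ratios of 0.14, 0.18 and 0.094. Metallothioneins and S100 proteins, with some of the shortest mRNAs, had a median of 0.65 before and 0.19 after adjustment, or 0.62 with the median coding transcript. MT2A, a metal-binding protein, had 62694 normalized counts in LPS and 107666 in mut PDZ+LPS, beside 45981 in Control and 70482 in WT PDZ+LPS (0.78, adjusted 0.31), MT1X 15717 in LPS and 25045 in mut PDZ+LPS (0.20), MT1E 11136 in LPS and 19231 in mut PDZ+LPS (0.32) and S100A6 11797 in LPS and 18551 in mut PDZ+LPS (0.19). Collagens, laminins and fibronectin had 25 of 38 above 0 (median 0.13, or -0.026 with the median coding transcript). The lowest adjusted ratio of the list was -0.36 and the highest 0.99. Its most abundant members in LPS were FN1 (39880 in LPS and 26147 in mut PDZ+LPS, -0.17), THBS1 (-0.05), LAMB1 (0.19) and LAMA5 (0.54). LAMA5 was at 0.23 after the fit over length and GC content. Integrins had 4 of 14 above 0 (median -0.10), with ITGB1 at -0.27, ITGA3 at 0.071, ITGB8 at -0.065 and ITGB4 at 0.13.

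**Figure D5:**
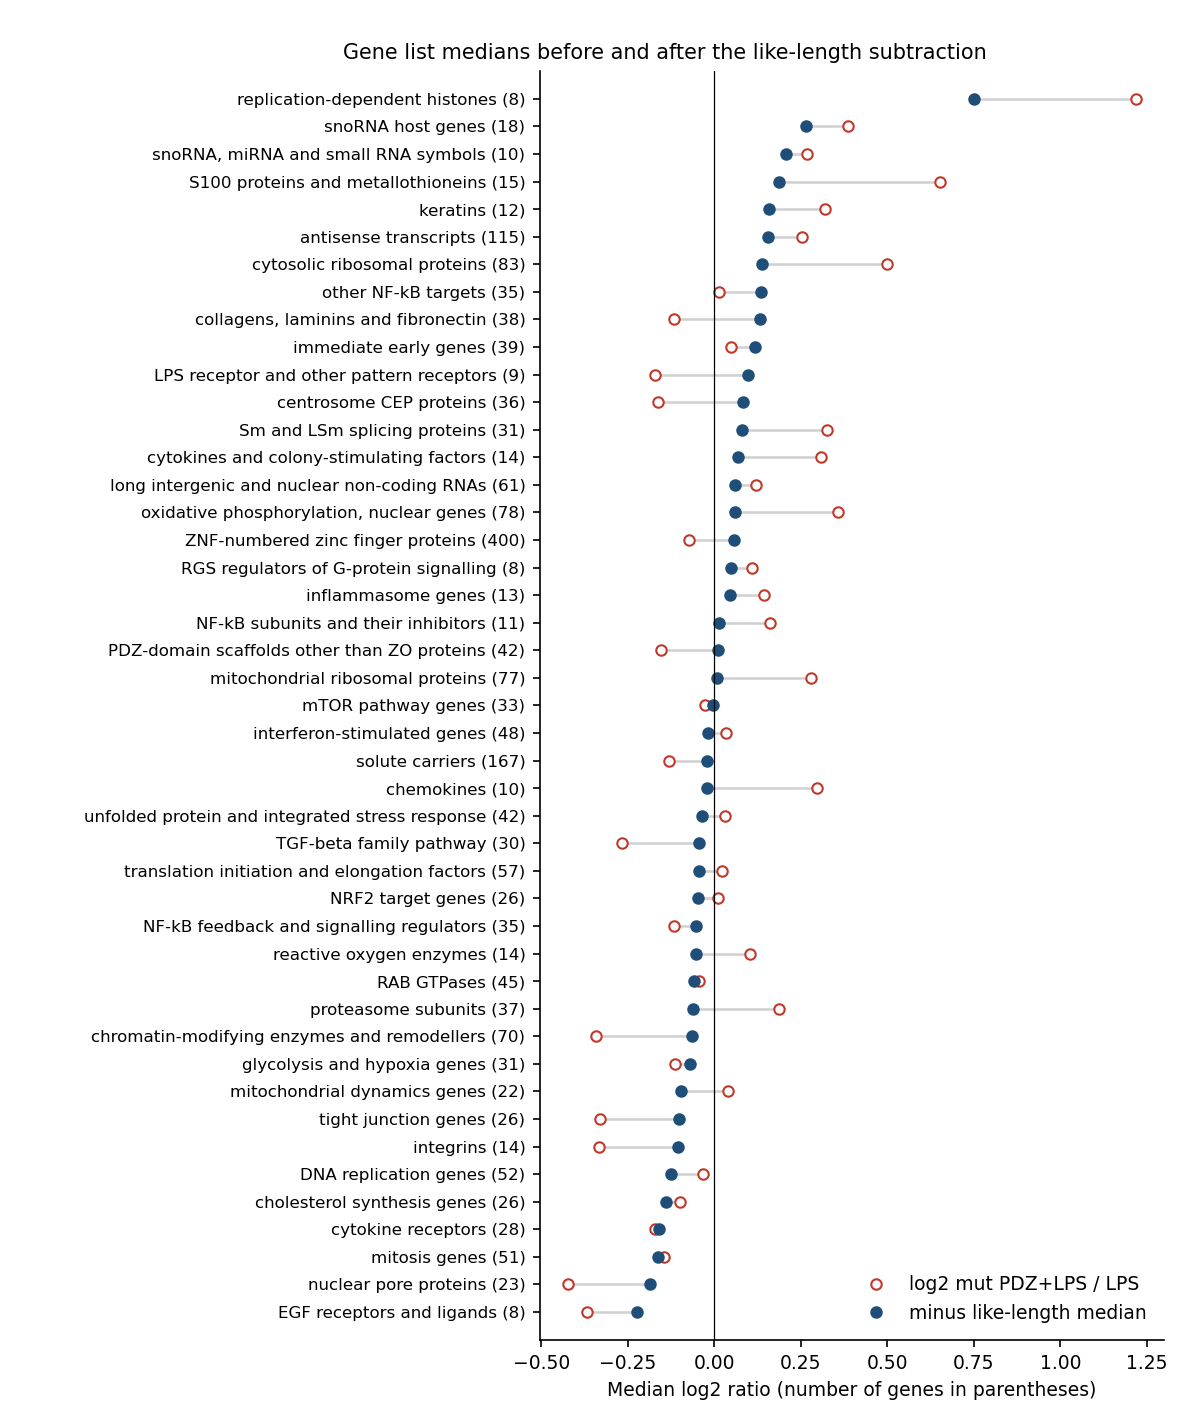
Median log2 ratio of mut PDZ+LPS to LPS over the genes of each list shown (x axis), before (open circles) and after (filled circles) subtraction of the like-length median, with lists ordered by the filled circles. Adjusted medians run from -0.22 for the EGF receptors and ligands to 0.27 for the snoRNA host genes, apart from the histones, whose place is set by the entry minimum.

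Large gene families served as a yardstick for these medians. The 400 ZNF-numbered zinc finger genes had a median of -0.072 before and 0.056 after adjustment, with ZNF354C (94.1 to 32.9, -1.25) and ZNF699 (78.1 to 35.2, -1.07) past 2-fold and the abundant ZNF207 and ZNF146 at 0.44 and -0.11. ZNF354C and ZNF699 were under the minimum in mut PDZ+LPS and so could only be seen as lower. Chromatin enzymes, with a median transcript of 7440 nt, went from -0.34 to -0.065 over 70 genes, with CHD4 at -0.55, WHSC1 at 0.10, DNMT1 at 0.038 and SMARCA4 at 0.20. Nuclear pore genes had an adjusted median of -0.19, with 6 of 23 above 0 against 50.1% of all genes. NUP153 was at -0.32, NUP188 at -0.27, RANBP2 at -0.12 and TPR at 0.057. Centrosomal genes had 0.083 over 36, with CEP350 at -0.43, PCM1 at -0.17, PCNT at 0.19 and CEP250 at 0.41. RAB GTPases had -0.06 over 45, with RAB7A at 0.13, RAB10 at -0.30, RAB14 at -0.34 and RAB1B at -0.16. RGS genes had 0.05 over 8, and RGS12, a regulator of G-protein signalling, had 401 normalized counts in LPS and 343 in mut PDZ+LPS, beside 346 in Control and 407 in WT PDZ+LPS (-0.22, adjusted 0.012). The 167 solute carriers had -0.02, with SLC22A3 (145 to 67, -1.04) and SLC9A5 (58.3 to 110.4) at or past 2-fold and SLC38A2 and SLC7A5 at -0.16 and 0.14. SLC9A5 was under the minimum in LPS and so could only be seen as higher. Several of these medians changed sign with the correction. After the fit over length and GC content the median was -0.083 for NF-kB subunits and inhibitors, 0.0069 for chemokines, -0.047 for PDZ scaffolds, 0.0030 for chromatin enzymes and -0.014 for inflammasome genes. With the median coding transcript it was -0.11 for pattern receptors, -0.086 for PDZ scaffolds, -0.0078 for ZNF genes, -0.092 for centrosomal genes, 0.11 for proteasome subunits, 0.0085 for the mTOR pathway and 0.0096 for the unfolded protein response.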

How the data were processed

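Total RNA of BEAS-2B cells was made into directional, poly(A)-selected libraries and sequenced. After trimming, reads were mapped with TopHat to hg19 (per the submitters' processing notes), and the authors deposited whole-number read counts per gene symbol, without normalization. The counting tool and its strand setting are not given in the sources used here. Totals were 19682929 to 25155647 counts per library (4 libraries, 1 a condition).

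Counts were scaled by median-of-ratios size factors from all 4 libraries (DESeq2 1.42.0, R 4.3.3). Log2 ratios used a pseudocount of 1. Transcript length and GC content came from GENCODE 29 (longest protein-coding transcript, else longest), matched for 22869 of 24424 symbols by name or RefSeq synonym; 135 of the 11603 genes compared had none. The like-length median was taken over the 500 nearest genes and lowess used a span of 0.3. No p-value was computed, since each condition had 1 library. Genes named were the 8 highest and 8 lowest ratios, raw and adjusted, up to 4 genes a list (2-fold genes first, then the most abundant in LPS), and genes the study discusses. The members and the 47 lists were chosen with earlier results of these data known. Alternatives were TMM (edgeR 4.0.16) and total-count scaling, a pseudocount of 5, a lower (16), a higher and no minimum, folds of 1.5 and 3, 250 or 1000 nearest genes and lowess over length and GC. Added after the values were seen were the removal of read-through and shared-sequence symbols and the coding transcript of median length. The steps were tested on simulated data. XIST and Y-linked genes were left out of the text. Some genes of the lists are not reported here.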

Additional observations from a re-analysis of the deposited data

How the results depend on the processing

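No paired analysis was possible because each group has 1 library and the labels give no replicate numbers, and no count could be made without either library. Counts are given here as higher and lower without adjustment, then higher and lower after length adjustment. They were 58, 159, 56 and 60 as reported. A minimum of 16 gave 274, 254, 228 and 158, a minimum 4 times the reported one gave 16, 105, 22 and 28, and no minimum gave 1580, 855, 1095 and 1032, the last filled by genes of a few counts. A 1.5-fold limit gave 614, 1066, 480 and 316, and a 3-fold limit 16, 19, 10 and 11. TMM and total-count scaling, the pseudocount of 5, the other numbers of nearest genes, lowess and the removal of shared-sequence symbols kept each count within 1.5 times. The genes behind a like count were not all the same under lowess, which kept 36 of the 56 higher and 48 of the 60 lower adjusted calls. Lengths from the median coding transcript gave 70 higher and 96 lower after adjustment and cut the difference between the shortest and the longest group of transcripts from 0.73 to 0.44, and no other setting moved that difference beyond 0.70 to 0.74. Of 41 named genes past 2-fold after adjustment, 41 remained under TMM, 41 under total-count scaling and 34 under lowess, which lost HIST1H1B, LINC01311, RMRP, RPPH1, SCARNA2, SLC22A3 and SLC9A5. The median coding transcript also left 34 and lost PDK3, RPL21, RPL37, SLC22A3, SLC9A5, SMAD1-AS1 and ZNF699. List medians stayed within their order-statistic intervals under TMM, total-count scaling and lowess (46 of 46 each) and left them in 11 of 46 with the median coding transcript. No named gene past 2-fold changed sign. The causes of these shifts were not tested. Without a second library the spread between cultures is unknown.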
